A study of Homo sapiens with 8 samples.

Results

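The mucin genes examined here are MUC5AC, MUC5B, MUC2, MUC6, MUC1, MUC4, MUC12, MUC13, MUC16 and MUC20, and the data are the METTL3 RNA immunoprecipitation peaks that lie whole within their gene spans. RNA immunoprecipitation with sequencing (RIP-seq) recovers RNA with an antibody against a protein, here METTL3, the enzyme that places N6-methyladenosine on messenger RNA together with its partner METTL14. Of 3649 peaks in the lists of both lines, 23 lay within a mucin gene, 2 of 2616 in LNCaP and 21 of 1033 in PC3. They fell on 3 of the 10 genes, MUC5AC, MUC5B and MUC6, and 7 genes had no peak in either line. These genes were chosen by the number and fold of their listed peaks, so which of them have peaks, and how strong the peaks are, is a description without a test.

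The study compared METTL3 IP with input in LNCaP and in PC3, with 2 replicates of each group and 8 samples in all. LNCaP is an androgen-sensitive prostate cancer line from a lymph node metastasis, and PC3 is an androgen-independent line from a bone metastasis. The labels list no transgene and no drug treatment for either line, and LNCaP was grown with more serum than PC3. The METTL3 IP took 80% of a lysate and the input 10%, and another 10% went to a rabbit IgG control, which was not analysed here. The deposited result is 1 peak list per line, so no value below has an error between replicates, and sequencing depth is unknown. Fold, p-value and FDR (the p-value adjusted over the listed peaks) are the authors' own for each peak. The fold is read as IP over input from the design, since the file header names no denominator.

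Mucins are large, heavily O-glycosylated proteins that coat epithelia. MUC2, MUC5AC, MUC5B and MUC6 are the secreted gel-forming mucins, whose genes lie side by side on chromosome 11, and the transcripts of this group carry a very long exon that codes for repeats rich in proline, threonine and serine. MUC1, MUC4, MUC12, MUC13, MUC16 and MUC20 are anchored in the cell membrane, where MUC1 and MUC4 also bear on growth factor receptor signalling. A METTL3 RIP peak marks RNA recovered with the protein and does not by itself show a methylated base.

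The secreted mucin genes lay within a stretch of 249350 bp on chromosome 11 (GRCh38, 1012823 to 1262172), in the order MUC6, MUC2, MUC5AC, MUC5B. At least 1 peak was present on 2 of the 10 mucin genes in LNCaP and on 3 of 10 in PC3. Over all 19974 protein-coding genes, 5.62% had a peak in LNCaP and 1.83% in PC3. All 23 peaks lay on this stretch. In PC3, MUC6 had 1 peak, MUC2 none, MUC5AC 8 and MUC5B 12. In LNCaP, MUC6 had 1, MUC2 none, MUC5AC 1 and MUC5B none. By number of listed peaks, the lines thus differed most at MUC5B, with 12 in PC3 and none in LNCaP. These 12 include 1 minus-strand peak, and the 11 plus-strand peaks form 1 block with gaps of 24 to 374 bp. The lists also admitted different p-values, up to 0.0178 in LNCaP and 1.59e-05 in PC3.

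**Figure D1:**
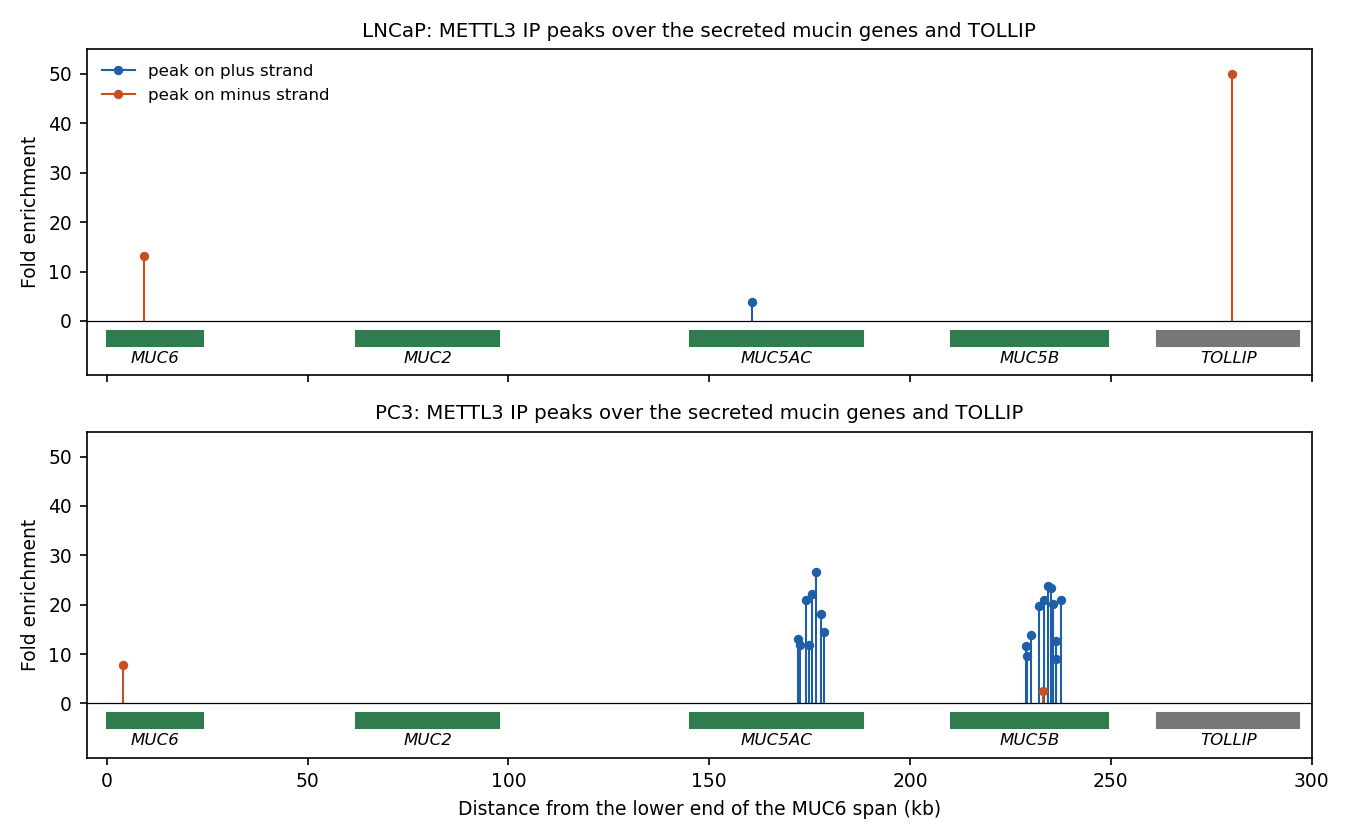
METTL3 IP peaks over the secreted mucin genes and the adjacent TOLLIP gene, with LNCaP above and PC3 below. The x axis is the distance in kb from the lower end of the MUC6 span, the y axis is the authors' fold, each dot is 1 peak at its midpoint, and the bars below 0 are gene spans; PC3 has 2 dense groups of peaks, on MUC5AC and MUC5B, where LNCaP has 1 peak in all.

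MUC5AC, the gel-forming mucin of airway goblet cells and of the stomach surface (chromosome 11, 1157953 to 1201138), carried its 8 PC3 peaks on the plus strand, the strand it is transcribed from. They lay between 1184948 and 1191473, a stretch of 6526 bp that made up 15.1% of the gene span, and covered 80.6% of that stretch. From the lowest coordinate to the highest, the folds were 13.0, 11.9, 20.9, 11.8, 22.1, 26.5, 18.1 and 14.5. The 4 highest folds belonged to the 3rd, 5th, 6th and 7th peaks, so the middle of the stretch was higher than its edges, with the short 4th peak (126 bp, fold 11.8) as an exception. The highest peak was at 1188873 to 1189998 (1126 bp) with a p of 4.25e-50, and it ranked 5 by fold and 17 by p among the 1033 PC3 peaks. The longest, at 1185973 to 1187623 (1651 bp), had a fold of 20.9 and a p of 1.05e-47. At the other end, the 76 bp peak at 1184948 to 1185023 had a p of 9.75e-07, rank 860, although its fold of 13.0 ranked 63. The 76 bp peak thus stood higher in the list by fold than by p. The peaks of 126 and 176 bp had folds of 11.8 and 14.5, at ranks 691 and 457 by p.

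The single LNCaP peak on MUC5AC lay elsewhere, at 1172511 to 1174583 (2073 bp, plus strand). Its fold was 3.92, with a p of 0.0095 and an FDR of 0.0103, which put it at rank 2235 by fold and 2422 by p among 2616 LNCaP peaks. It ended 10364 bp before the first PC3 peak. Its midpoint lay at 36.1% of the gene span, and the midpoints of the PC3 peaks lay between 62.6% and 77.4%. In LNCaP, no peak was listed over the stretch that held the 8 PC3 peaks.

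MUC5B, the main gel-forming mucin of airway submucosal glands (chromosome 11, 1223066 to 1262172), had 11 plus-strand peaks in PC3, the strand of the gene. They lay between 1241422 and 1251447, a stretch of 10026 bp or 25.6% of the gene span, of which they covered 85.4%. From the lowest coordinate to the highest, their folds were 11.7, 9.59, 13.8, 19.7, 20.9, 23.8, 23.4, 20.2, 12.7, 9.09 and 21.0. The 4th to 8th peaks and the last had folds of 19.7 or more, and the first 3, the 9th and the 10th had folds of 13.8 or less. That last peak, at 1249472 to 1251447, was the longest (1976 bp) and had the smallest p of any mucin peak, 4.3e-58, rank 9 of 1033. The highest fold was on the 676 bp peak at 1246922 to 1247597, with a p of 1.96e-39. The 51 bp peaks at 1241972 to 1242022 and 1249222 to 1249272 had the lowest plus-strand folds, 9.59 and 9.09. Length did not set the fold throughout, since a 76 bp peak at 1247847 to 1247922 had a fold of 23.4, rank 9 of the list, with a p of 7.75e-07, rank 837.

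**Figure D2:**
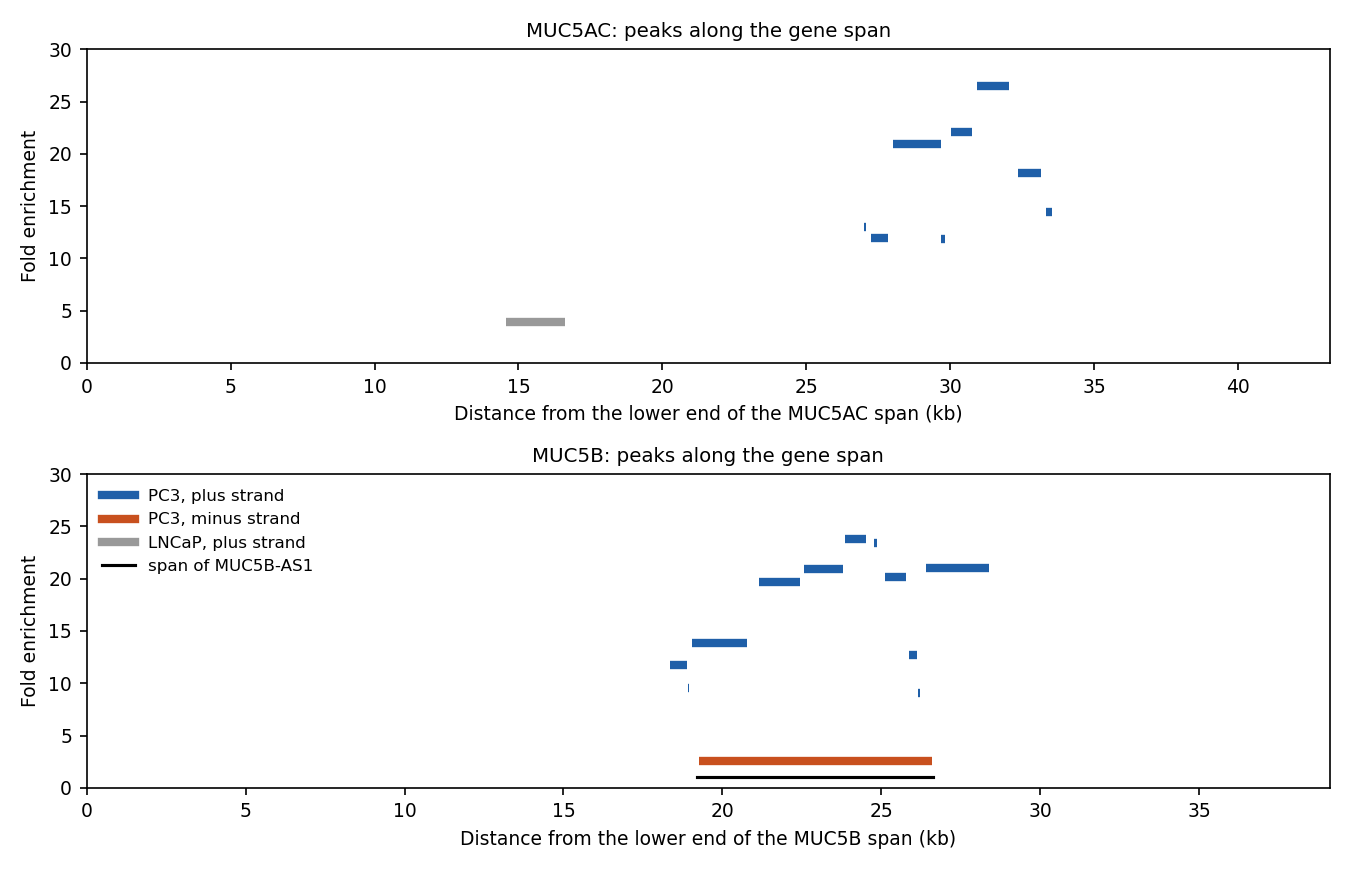
Fold of each peak along MUC5AC (above) and MUC5B (below), with the distance in kb from the lower end of each gene span on the x axis and the authors' fold on the y axis. Each coloured bar is 1 peak drawn to its length; PC3 plus-strand peaks run from 11.8 to 26.5 on MUC5AC and from 9.09 to 23.8 on MUC5B, the grey LNCaP peak lies apart at 3.92, and the PC3 minus-strand peak at 2.58 lies over the MUC5B-AS1 span (black line, its height has no value).

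Side by side, MUC5AC and MUC5B shared the arrangement of 1 dense block. The median fold was 16.3 over the 8 MUC5AC peaks and 19.7 over the 11 plus-strand MUC5B peaks, and weighting each peak by its length gave 20.3 and 18.5, so the order of these genes depended on the weighting. Within MUC5AC the highest fold was 2.25 times the lowest, and within MUC5B plus-strand peaks 2.62 times. Gaps between successive peaks were 24 to 324 bp on MUC5AC and 24 to 374 bp on MUC5B. Joining peaks separated by no more than 25 bp left 7 and 9 stretches. MUC5AC and MUC5B are paralogs with repeated sequence, and how reads that match both were counted is not stated in the sources used here. The gene table has spans without exons, so whether the blocks coincide with the long repeat-coding exon was not tested.

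MUC5B also held a minus-strand peak in PC3, at 1242335 to 1249667 (7333 bp). Its fold was 2.58 with a p of 1.42e-12, the lowest fold of the 21 PC3 mucin peaks and rank 1014 of the 1033 in the list. This peak lay whole within MUC5B-AS1, a long noncoding RNA gene named as antisense to MUC5B (1242261 to 1249676), starting 74 bp inside one end and ending 9 bp inside the other, and it spanned 98.9% of that gene. Of the 11 plus-strand peaks of MUC5B, 9 overlapped it in position, and together they covered 81.4% of it. These shares are of genomic spans, and whether introns lie within them was not tested. The library kit was stranded according to the labels' protocols. The share of plus-strand signal in the minus-strand value was not tested.

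MUC6, the gel-forming mucin of gastric glands (chromosome 11, 1012823 to 1036718), is transcribed from the minus strand and had 1 minus-strand peak in each line. In LNCaP the peak at 1020705 to 1023591 (2887 bp) had a fold of 13.1, a p of 2.98e-09 and an FDR of 7.43e-08, rank 163 by fold and 105 by p of 2616. In PC3 the peak at 1016892 to 1017067 (176 bp) had a fold of 7.89, a p of 1.62e-07 and an FDR of 2.35e-07, rank 273 by fold and 711 by p of 1033. The peaks did not overlap and were 3637 bp apart. In the direction of transcription, the LNCaP midpoint lay at 61.0% of the span and the PC3 midpoint at 82.6%. MUC6 thus held the stronger of the 2 LNCaP mucin peaks, and in PC3 the sense-strand mucin peak with the lowest fold. Folds were made separately for each list, so 13.1 and 7.89 were not compared.

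No mucin peak was shared between the lines. Of the 21 PC3 mucin peaks, 0 overlapped a LNCaP peak by at least 1 bp on the same strand, while 44.4% of all PC3 peaks did (459 of 1033). The PC3 peaks of MUC5AC and MUC5B adjoin within 1 block per gene. The 21 are thus not independent places, and nothing is read from the difference in shares. Of the 2 LNCaP mucin peaks, 0 overlapped a PC3 peak, against 21.3% of all LNCaP peaks (557 of 2616). MUC5AC and MUC6 were thus on both lists as genes without a shared place. The lists admitted different p-values, up to 0.0178 in LNCaP and 1.59e-05 in PC3. At or under the PC3 limit lay 14.9% of all LNCaP peaks, and of the mucin peaks MUC6 was under it and MUC5AC was not. MUC5B had no peak in the LNCaP list. The filters behind each list are not stated, so this absence is not set against the highest listed p-values. MUC5B RNA in LNCaP input was not analysed here, and lower enrichment and less RNA cannot be told apart.

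Within the PC3 list, the mucin peaks stood high by fold. Of the 21, 17 had a fold of at least 10, as had 14.0% of all PC3 peaks, and 20 were above the list's median fold of 5.74. Their median fold was 14.5. Among the 25 highest folds of PC3, 10 were on MUC5AC or MUC5B, and among the 25 smallest p-values, 5 were. In LNCaP, 1 of the 2 mucin peaks had a fold of at least 10, against 12.7% of the list, whose median fold was 5.26. Mucins made up 2.03% of the PC3 list and 0.0765% of the LNCaP list. The PC3 counts take the neighbouring peaks of MUC5AC and MUC5B separately, in genes chosen by number and fold of their peaks.

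**Figure D3:**
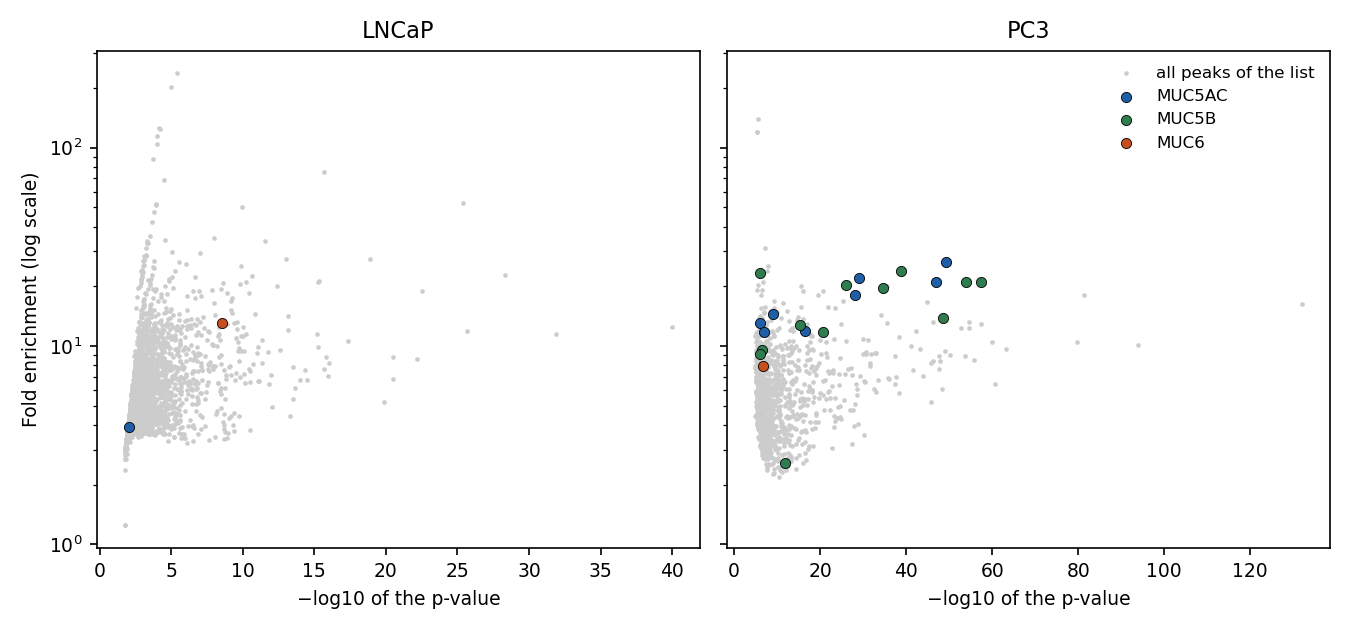
Fold (log scale) against −log10 of the authors' p for every peak of the LNCaP list (left) and the PC3 list (right), with mucin peaks coloured by gene. In PC3 the peaks of MUC5AC and MUC5B have folds of 9.09 to 26.5, except the minus-strand peak at 2.58, and the list's median fold is 5.74; in LNCaP the MUC5AC peak lies near the lower left corner and the MUC6 peak at a fold of 13.1.

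By number of peaks, MUC5B ranked 5 and MUC5AC 16, tied ranks included, among the 365 genes with a PC3 peak, whose median was 2 peaks. At least 8 peaks, a limit equal to the MUC5AC count, were present on 23 genes (0.115% of protein-coding genes). Among these 23, MUC5B and MUC5AC had the highest median folds, 16.8 (with the MUC5B minus-strand peak) and 16.3. The acetyltransferase gene CREBBP followed with 14.7 over 11 peaks. Over all 365 genes, the medians of MUC5B and MUC5AC ranked 2 and 3. AHNAK, a giant scaffold gene with the most PC3 peaks, 20, had the lowest median of the 23, 5.54. Per length of gene span, MUC5B had 3.07 and MUC5AC 1.85 peaks per 10 kb, ranks 12 and 25 of 365, against a median of 0.292. MUC6, with 1 peak, had 0.418 per 10 kb and a fold that ranked 60 among the 365 gene medians. These ranks use the measures by which the genes were noticed.

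MUC2, the gel-forming mucin of intestinal goblet cells (chromosome 11, 1074874 to 1110508), lies between MUC6 and MUC5AC and had no peak. The nearest peak of the same chromosome was 51283 bp away in LNCaP and 57807 bp away in PC3, both on MUC6. None of the 6 membrane-anchored mucins had a peak either. MUC1, which lines the apical surface of many glandular epithelia (chromosome 1, 155185824 to 155192915), had its nearest peak at 75854 bp in LNCaP and 584133 bp in PC3. For MUC12 (chromosome 7, 100969565 to 101018936), the nearest peaks were at 84544 and 84247 bp. MUC16, the ovarian cancer antigen and the longest span of the set at 216908 bp (chromosome 19, 8848844 to 9065751), had none nearer than 305956 bp in LNCaP and 363106 bp in PC3. MUC4 (chromosome 3, 195746771 to 195811929) and the adjacent MUC20 (195720978 to 195733551) had none within 598861 bp in LNCaP or 2226666 bp in PC3. The nearest to MUC13 (chromosome 3, 124905442 to 124934751) was at 1197677 bp, in PC3. A gene with no peak may be unexpressed, unenriched or left out by the unstated filters, which the lists cannot tell apart.

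On chromosome 11, 20 other protein-coding genes lay in the mucin stretch or within 300000 bp of it. Of these 20, 2 had a peak in LNCaP (10.0%, beside 5.62% over all protein-coding genes) and 0 in PC3 (beside 1.83%), and nothing is read from these small counts. TOLLIP, an inhibitory adaptor of Toll-like receptor signalling next to MUC5B, had a LNCaP peak at 1290324 to 1295734 on the minus strand with a fold of 49.9 and a p of 1.12e-10, rank 13 by fold of 2616. This peak was the nearest one outside the MUC5B span in LNCaP, 28152 bp beyond it. CHID1, on the MUC6 side, had a LNCaP peak with a fold of 3.27 at 893470 to 899340.

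The lists of genes tied to mucin biology were set beside the shares over all protein-coding genes, 5.62% with a peak in LNCaP and 1.83% in PC3. Over 4 lists together, 3 of 63 genes had a peak in LNCaP (4.76%) and 0 in PC3, shares near those over all genes. Of 13 other genes listed as mucins, including MUC3A, MUC17, MUC19 and the adhesion molecule gene MCAM, 0 had a peak in either line. Of 28 genes listed for mucin-type O-glycosylation, 3 had a peak in LNCaP and 0 in PC3, a share of 10.7% in LNCaP. These were GALNT2 and GALNT10, which start O-glycans by adding N-acetylgalactosamine, and ST3GAL1, which caps them with sialic acid. GALNT2 had a fold of 4.11. GALNT10 had folds of 4.63 and 9.63. ST3GAL1 had 3 peaks that nearly adjoin and are not separate places. They lay at 133476510 to 133499228, 133499303 to 133545820 and 133545845 to 133571711, with folds of 5.53, 6.72 and 3.85. Of 10 genes with von Willebrand D domains related to the gel-forming mucins, among them VWF, OTOG and FCGBP, 0 had a peak. Of 12 genes of mucus-secreting cells, such as SPDEF, AGR2 and the trefoil factor genes, 0 had a peak in either line.

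Of 4 genes fixed as PC3 markers (VIM, KRT5, KRT19 and CD44), 0 had a peak in either line. A peak list does not measure expression, so this count neither settles nor contradicts the label.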

How the data were processed

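METTL3 RIP and input libraries of LNCaP and PC3 (2 replicates per group) were the source of 1 deposited peak list per line. The submitters' processing notes name fastp, STAR 2.5.3a, bedtools, deepTools and hg38, without roles; the peak caller, its filters and the handling of replicates are not given in the sources used here. Per the file headers, the authors gave each peak a linear fold enrichment, p-value, FDR and score. The deposited FDR equalled the Benjamini-Hochberg adjustment over the listed peaks, and the score was −log2 of that deposited value.

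Peaks were assigned with Python 3.11.15 and pandas 2.3.3 where they lay whole within a RefSeq GRCh38.p14 gene span, on either strand, and overlap between lines required 1 bp on the same strand. Positions are given 1-based as listed, and peak lengths are genomic spans from start to end. The assignment was tested on simulated peaks. Named with values were all members and those list genes that had a peak. The lists held neighbours, other genes listed as mucins, O-glycosylation genes, von Willebrand D relatives, secretory genes and PC3 markers. Other list genes are named only as examples of their list. The LNCaP marker list is not reported here. Members and lists were chosen with earlier results of these data known. The planned IP-against-input test and the GGAC motif count were not run, as they need values per sample and a genome sequence. No figure of spread applies, and depth per sample is unknown.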

Additional observations from a re-analysis of the deposited data

How the results depend on the processing

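No paired analysis was possible because each line has 1 list without replicate values, which also kept single replicates from being left out. The motif count and the strand filter from the annotation were not run for lack of a genome sequence and of strands in the gene table. In LNCaP the 2 mucin peaks became 1 with an FDR of at most 0.01, 1 at or under the highest PC3 p, and 1 with a fold of at least 4, the MUC5AC peak being the one removed each time by its own value. The other 4 settings left 2. In PC3 the 21 peaks were 18 after joining within 25 bp, 20 with a fold of at least 4, 20 on the strand that holds most peaks of the gene (chosen after seeing the data), and 21 under the other 4 settings. Among these 4, the FDR limit and the PC3 p limit could not remove a PC3 peak, as the highest PC3 p was 1.59e-05. Under both limits the PC3 count and median fold were thus fixed in advance. No PC3 mucin peak overlapped a LNCaP peak with 50% of both peaks required or on either strand. The median fold of PC3 mucin peaks was 14.5 under 4 of 6 settings and 16.3 without the minus-strand MUC5B peak, which a fold of at least 4 and the strand rule both removed. That of LNCaP was 8.50 over 2 peaks and 13.1 over the MUC6 peak alone. Of these settings for the medians, 4 were added after seeing the data.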

Other observations

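The lengths of the PC3 mucin peaks were regular. In 20 of the 21, End minus Start was a multiple of 25 bp, as in 39.8% of all PC3 peaks, and the exception was the minus-strand peak within MUC5B. In neither of the 2 LNCaP mucin peaks was it, against 37.1% of the LNCaP list. Divided by 25, the starts of all PC3 peaks on MUC5AC left a remainder of 23. Those of all plus-strand PC3 peaks on MUC5B left 22. Peaks of the same gene thus kept to 1 spacing of 25 bp and are not independent, and nothing is read from the difference in shares.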
